A study of Homo sapiens with 12 samples.

Results

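The genes examined here were 6 metallothioneins (MT1E, MT1F, MT1G, MT1M, MT1X and MT2A), the zinc exporter gene SLC30A1 and the transcription factor gene MTF1. They were chosen by symbol, as the rows of the deposited count table that carry these names, and gave 8 of the 58233 genes in the table. Of the 8, 6 had enough reads to be tested, among 16657 tested genes. MT1G had 1 read over all libraries and MT1M had 0. The libraries came from HCT116, a human colorectal carcinoma cell line, in the form HCT116 Tet-OsTIR1, in which both AAVS1 alleles carry the rice F-box protein TIR1 under a tetracycline-inducible promoter. This parental line was compared with the SDS22-degron line made from it, in which SDS22, a regulator of protein phosphatase-1 encoded by PPP1R7, is fused at its endogenous locus to mAID-mClover. Both lines were either left untreated or given 2 µg/ml doxycycline (Dox) with 500 µM indole-3-acetic acid (IAA) for 48 h, which gave 4 groups of 3 biological replicates. Dox induces TIR1 and IAA targets the tagged SDS22 for degradation, so both treated groups share the 2 agents and only the degron line carries the tagged protein. The degron line was grown from isolated colonies, and no group received Dox or IAA alone, so the effects of the 2 agents cannot be told apart.

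Metallothioneins are small, cysteine-rich proteins that bind zinc and copper and buffer both metals in the cytosol. Their transcription is raised by zinc through MTF1, a zinc-finger protein that senses zinc and binds metal response elements in the promoters of metallothionein genes and of SLC30A1. SLC30A1, also called ZnT1, exports zinc across the plasma membrane, so a rise in free zinc normally raises both the buffer and the exporter. Tetracyclines such as Dox can bind divalent metal ions, which is why the response of these genes to Dox/IAA in both lines was examined.

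The promoters show how the members differ in the letters that MTF1 reads. RefSeq (GRCh38.p14) gave a window of 250 bases before to 50 bases after the start for 4 of the 8 members, and MT1E, MT1F, MT1G and MT1M were not matched. In the windows below, capitals mark the core of the metal response element, searched as TGCACNC or TGCGCNC on both strands, and no matches overlapped each other. At least 1 match was present in 29.6% of the 35116 promoters. The MT2A window (chr16:56608334-56608633, plus strand) held 8 matches, 5 on the plus and 3 on the minus strand, a number that 0.0199% of all promoters reach. The MT1X window (chr16:56682220-56682519, plus strand) held 4, reached by 0.601% of promoters. The SLC30A1 window (chr1:211579112-211579411, minus strand) held 2, reached by 8.6%. The MTF1 window held 0. A match is a run of letters and not a measured binding site. The starts are those of RefSeq and can differ from the deposited gene positions. The SLC30A1 window lies wholly upstream of the deposited gene (chr1:211571568-211578742). The MT2A window lies inside the deposited gene (chr16:56608199-56609497).
MT2A promoter: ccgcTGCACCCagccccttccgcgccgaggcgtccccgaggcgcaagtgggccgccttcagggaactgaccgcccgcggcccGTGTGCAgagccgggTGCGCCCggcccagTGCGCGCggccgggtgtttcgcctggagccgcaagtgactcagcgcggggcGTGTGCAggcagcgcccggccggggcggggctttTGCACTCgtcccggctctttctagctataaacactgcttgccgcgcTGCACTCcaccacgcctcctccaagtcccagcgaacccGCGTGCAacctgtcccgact
MT1X promoter: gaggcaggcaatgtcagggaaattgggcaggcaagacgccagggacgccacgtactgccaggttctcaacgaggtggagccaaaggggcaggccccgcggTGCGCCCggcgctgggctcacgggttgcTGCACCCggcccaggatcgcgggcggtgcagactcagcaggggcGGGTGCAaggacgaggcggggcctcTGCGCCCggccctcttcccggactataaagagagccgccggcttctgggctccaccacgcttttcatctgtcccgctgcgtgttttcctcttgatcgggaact
SLC30A1 promoter: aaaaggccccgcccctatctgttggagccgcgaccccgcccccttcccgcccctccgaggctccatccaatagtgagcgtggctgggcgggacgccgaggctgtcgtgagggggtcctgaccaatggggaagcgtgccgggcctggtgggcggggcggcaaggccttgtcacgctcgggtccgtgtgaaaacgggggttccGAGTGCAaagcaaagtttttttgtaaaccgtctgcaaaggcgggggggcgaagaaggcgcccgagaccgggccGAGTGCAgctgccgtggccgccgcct

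Reads assigned to genes numbered 12133915 to 14657508 in a library, and the TMM factors were between 0.971 and 1.03. Chi-square per degree of freedom between replicates was 2.06 to 9.02, and 0 pairs were identical. The epithelial markers EPCAM, CDH1, KRT8, KRT18 and KRT19 were expressed, VIL1 had at most 2 counts in a library and CDX1 was at 0. CDH1, the E-cadherin gene, rose with Dox/IAA in both lines (0.36 and 1.00) and further in SDS22-degron cells (interaction 0.64, adjusted p = 0.0290). The parental rise of CDH1 was lost under 10 of 25 alternatives (adjusted p up to 0.207) and its interaction under 7 of 24 (up to 0.0923). KRT18 (-0.47 and -0.29) and KRT8 (-0.39 and -0.33) fell in both lines, and EPCAM and KRT19 were not called in either. That is 1 higher and 2 lower of 5 tested in each line, beside 31.6% and 51.5% of all tested genes called. The SDS22-degron call of KRT8 was lost under 1 of 25 alternatives. The part of these markers in the results was not tested. Markers of leukocytes, endothelium, fibroblasts and hepatocytes summed to 9.96 to 32.1 CPM (reads scaled to library size), nearly all from COL1A1, and CD3E, COL1A2 and DCN were at 0. COL1A1 moved with the treatment opposite to the metallothioneins (log2 fold change 0.81 in parental and 0.94 in SDS22-degron cells), and its part in the results was not tested. PPP1R7 was between 40.1 and 51.1 CPM in every library. The degron acts on the protein, so this transcript is no check of the labels.

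MT2A, the metallothionein gene with the highest transcript level in these cells, fell with Dox/IAA in both lines and was lower in the SDS22-degron line in both conditions. MT2A (ENSG00000125148) lies at chr16:56608199-56609497 of GRCh38, plus strand. Levels are given as TMM-normalized CPM. In untreated parental cells, MT2A was at 308.1, 292.9 and 307.1 CPM in replicates 1 to 3. In parental cells with Dox/IAA it was at 234.5, 221.8 and 209.6 CPM. Both treatment and line separated these libraries, since the groups of MT2A values did not overlap anywhere in the order from untreated parental to treated SDS22-degron cells. Untreated SDS22-degron cells had 171.3, 167.5 and 202.1 CPM. SDS22-degron cells with Dox/IAA had 104.6, 99.97 and 109.8 CPM, the lowest 3 of the 12 libraries. In bulk RNA, fewer expressing cells and less RNA per cell cannot be told apart.

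MT1E, the second metallothionein by level, showed the same order with 1 overlap. MT1E (ENSG00000169715, chr16:56625475-56627112, plus strand) was at 195.0, 176.8 and 166.7 CPM in untreated parental cells and at 125.8, 118.0 and 105.8 CPM after Dox/IAA. In the SDS22-degron line it was at 118.3, 103.8 and 115.7 CPM without and at 56.4, 56.0 and 53.5 CPM with Dox/IAA. Treated parental and untreated SDS22-degron libraries overlapped in MT1E, and every other pair of neighbouring groups was separate.

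MT1X (ENSG00000187193, chr16:56682424-56684196, plus strand) was far below MT2A, also per length. Its levels were 12.8, 13.1 and 9.89 CPM in untreated and 10.3, 8.53 and 8.89 CPM in treated parental cells. In SDS22-degron cells they were 9.99, 8.32 and 11.01 CPM without and 5.49, 6.19 and 6.18 CPM with Dox/IAA. Here only the treated SDS22-degron libraries stood below all others, and the other 3 groups overlapped.

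MT1F (ENSG00000198417, chr16:56657694-56660698, plus strand) had few reads, 24 to 53 in a library. Untreated parental cells had 3.21, 2.74 and 1.98 CPM and treated parental cells 3.97, 3.16 and 3.07 CPM. SDS22-degron cells had 2.55, 2.34 and 2.13 CPM untreated and 2.14, 2.56 and 3.38 CPM treated. The groups of MT1F overlapped in all 4 comparisons. MT1G (ENSG00000125144, chr16:56666731-56668065, minus strand) had its 1 read in an untreated parental library. MT1M (ENSG00000205364, chr16:56632233-56633986, plus strand) had no read in any. A count of 0 allows up to 3 counts, which is 0.206 to 0.253 CPM per library, and this limit covers counting error only.

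SLC30A1 (ENSG00000170385, chr1:211571568-211578742, minus strand) did not follow the metallothioneins. It was at 38.2, 42.1 and 37.1 CPM in untreated and at 35.8, 35.7 and 32.4 CPM in treated parental cells. In the SDS22-degron line it was at 44.5, 39.3 and 33.8 CPM without and at 52.2, 44.3 and 41.6 CPM with Dox/IAA. The treated SDS22-degron libraries were all above the treated parental ones, while the 2 untreated groups overlapped.

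MTF1 (ENSG00000188786, chr1:37809567-37859620, minus strand) differed by line and hardly by treatment. Parental cells had 52.4, 56.2 and 52.9 CPM untreated and 59.9, 53.6 and 59.6 CPM treated. SDS22-degron cells had 41.8, 45.8 and 43.9 CPM untreated and 41.0, 35.5 and 42.3 CPM treated. All 6 SDS22-degron libraries were below all 6 parental libraries, and treated and untreated libraries of a line overlapped.

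**Figure D1:**
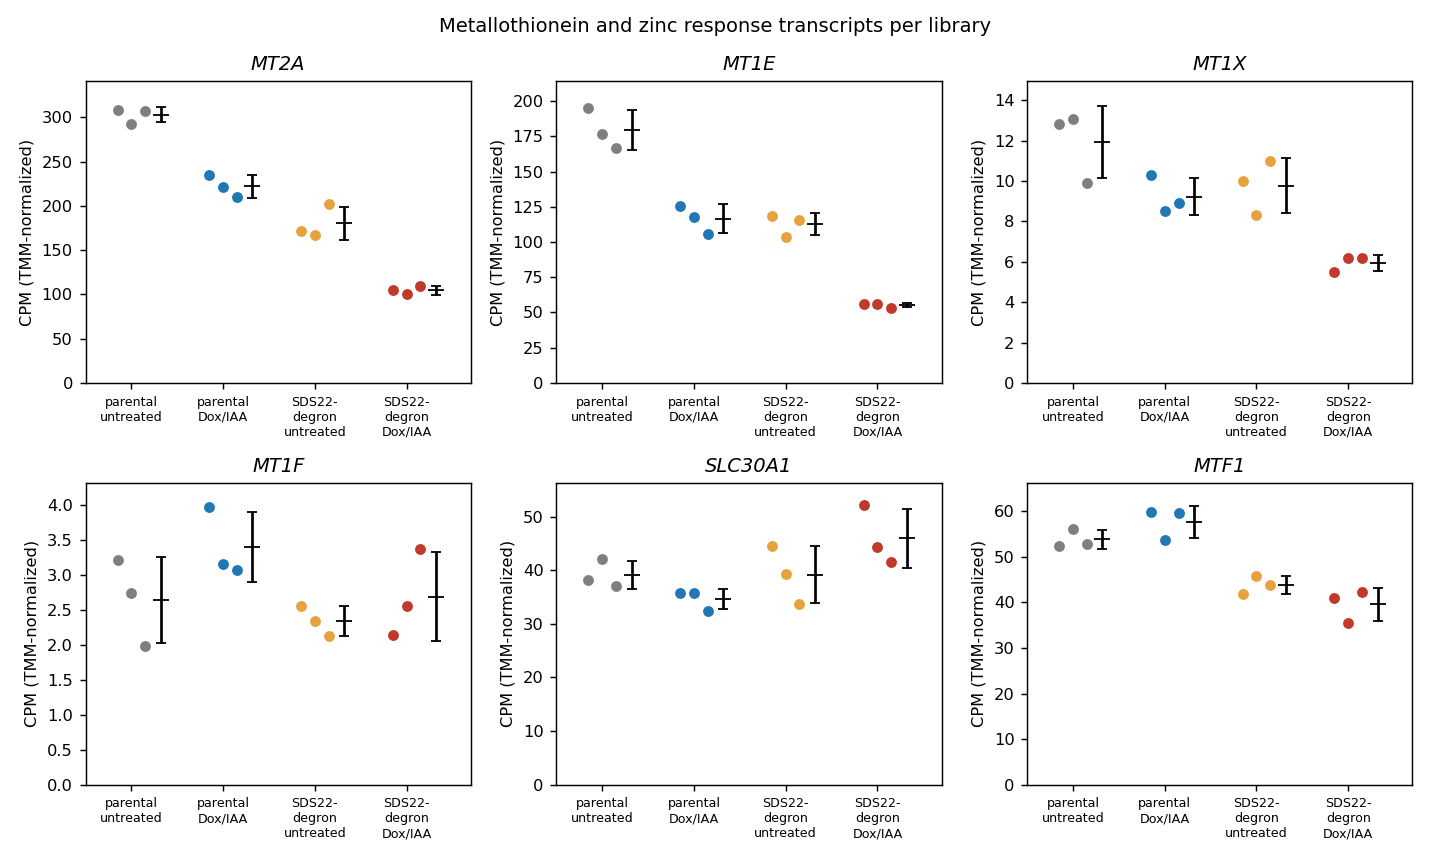
TMM-normalized CPM (y axis, from 0) of the 6 tested members in each of the 4 groups (x axis). Points are the 3 libraries of a group, and the bar beside them is the mean ± SD. The 3 treated SDS22-degron libraries are the lowest for MT2A, MT1E and MT1X, while for SLC30A1 they lie above the treated parental libraries.

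Per kilobase of the deposited gene length, MT2A led with 233.0 ± 6.53 CPM per kb (SD, n = 3) in untreated parental cells. MT1E followed with 170.6 ± 13.6 CPM per kb. On this scale SLC30A1 was at 7.14 ± 0.479, MT1X at 6.73 ± 0.997, MTF1 at 6.71 ± 0.257 and MT1F at 1.40 ± 0.329 CPM per kb. By this length, MT1X, MTF1 and SLC30A1 lay within their spread of one another, whereas MT2A and MT1E were separate from each other and from the rest. The deposited length is 1299 bases for MT2A, 1052 for MT1E, 1773 for MT1X and 1889 for MT1F. Their transcript models have 401, 704, 404 and 425 bases. The likeness of MT1X to MTF1 and SLC30A1 can therefore depend on the length used, and levels per transcript length were not computed.

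The reads of the 6 metallothioneins summed to 496.8 ± 19.4 CPM in untreated and 351.1 ± 23.6 CPM in treated parental cells (SD, n = 3). They summed to 305.0 ± 24.6 CPM in untreated and 168.7 ± 4.05 CPM in treated SDS22-degron cells. As ratios of group means, Dox/IAA left 0.707 of the sum in parental and 0.553 in SDS22-degron cells. The SDS22-degron line held 0.614 of the parental sum without and 0.480 with treatment. MT2A contributed 56.7% to 64.0% of the sum in the 12 libraries and MT1E 30.9% to 39.2%, so the sum mostly describes these 2 genes.

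The first question was what Dox/IAA does in the line that has no degron. In parental cells, 3 of the 6 tested members fell and none rose, beside 31.6% of all tested genes called in either direction, 15.7% lower and 15.9% higher (threshold 0.05 on adjusted p, quasi-likelihood test of edgeR). The median log2 fold change of the 6 was -0.27, beside 0.0015 for all tested genes. MT2A fell by 0.45 on the log2 scale (SE 0.0727, adjusted p = 0.000166) and MT1E fell by 0.62 (SE 0.0768, adjusted p = 1.39e-05), both lower in 3 of 3 treated libraries. MT1X fell by 0.37 (SE 0.138, adjusted p = 0.0492), with overlapping libraries, and 14 of 25 alternatives ended this call. Among them were leaving out parental untreated replicate 1 or 2, parental Dox/IAA replicate 2 or 3, SDS22-degron untreated replicate 1, or any of the treated SDS22-degron replicates, with adjusted p between 0.0518 and 0.171. SLC30A1 had a log2 fold change of -0.17 (adjusted p = 0.217), MTF1 of 0.10 (adjusted p = 0.357) and MT1F of 0.37 (95% interval -0.09 to 0.83, adjusted p = 0.215). The treated and untreated parental libraries did not overlap in 3 of the 6, MT2A, MT1E and SLC30A1, beside 41.3% of tested genes.

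The same question was asked in SDS22-degron cells, where Dox/IAA also removes SDS22. MT2A, MT1E and MT1X fell and none of the 6 rose, beside 51.5% of all tested genes called, 25.5% lower and 26% higher. The median of the 6 was -0.43, beside 0.0046 for all tested genes. MT1E fell by 1.03 (SE 0.0803, adjusted p = 1.21e-08), which is 0.491 of its untreated level. MT2A fell by 0.78 (SE 0.0748, adjusted p = 1.17e-07) and MT1X fell by 0.71 (SE 0.149, adjusted p = 0.000589). SLC30A1 was 0.23 higher (SE 0.101, adjusted p = 0.0639), without passing the threshold. It passed under 8 of 25 alternatives, among them leaving out parental Dox/IAA replicate 2 (adjusted p = 0.0449), SDS22-degron untreated replicate 1 (adjusted p = 0.0190) or SDS22-degron Dox/IAA replicate 3 (adjusted p = 0.0439). MTF1 had a log2 fold change of -0.15 (adjusted p = 0.134) and MT1F of 0.19 (95% interval -0.29 to 0.67). Libraries did not overlap in 3 of the 6, MT2A, MT1E and MT1X, beside 59.9% of tested genes. By the study's cut-off, an unadjusted p under 0.05 and a log2 fold change beyond 1 in size, MT1E alone passed in these cells, beside 7.83% of tested genes, and no member passed in parental cells, beside 3.14%. The study used this cut-off with edgeR's likelihood ratio test between treated lines. Here it was used with the quasi-likelihood test in every comparison.

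Whether the treatment effect differed between the lines was tested as an interaction, the Dox/IAA effect in SDS22-degron cells minus that in parental cells. On the log2 scale, MT1E (difference -0.40, SE 0.111, adjusted p = 0.0199) and MT2A (-0.34, SE 0.104, adjusted p = 0.0373) fell further in the SDS22-degron line. This stands beside 14.4% of tested genes called, 8.35% lower and 6.03% higher. In CPM the drop was not larger there. MT2A means went from 302.7 to 221.9 CPM in parental and from 180.3 to 104.8 CPM in SDS22-degron cells. Those of MT1E went from 179.5 to 116.55 CPM and from 112.6 to 55.3 CPM. For MT1X the log2 difference was -0.34 (SE 0.203, adjusted p = 0.282), close to that of MT2A in size but with a wider error. For SLC30A1 it was 0.41 (SE 0.145, adjusted p = 0.0693), in the other direction, and it passed under 5 of 24 alternatives (adjusted p down to 0.00612). Among these were leaving out SDS22-degron untreated replicate 1 (adjusted p = 0.0339) and the fit with the replicate number as a block (adjusted p = 0.0169). MTF1 and MT1F gave -0.25 (adjusted p = 0.152) and -0.17 (adjusted p = 0.765). No member passed the study's cut-off, beside 3.6% of tested genes. The 2 calls were near the threshold. Without parental untreated replicate 3, neither remained (MT1E adjusted p = 0.0559, MT2A adjusted p = 0.0595), and MT1E was also lost without SDS22-degron untreated replicate 1 (adjusted p = 0.0592). MT2A was lost without parental Dox/IAA replicate 1 (adjusted p = 0.0626) or 2 (0.0658), SDS22-degron untreated replicate 3 (0.109), or SDS22-degron Dox/IAA replicate 1 (0.0524) or 2 (0.0892).

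**Figure D2:**
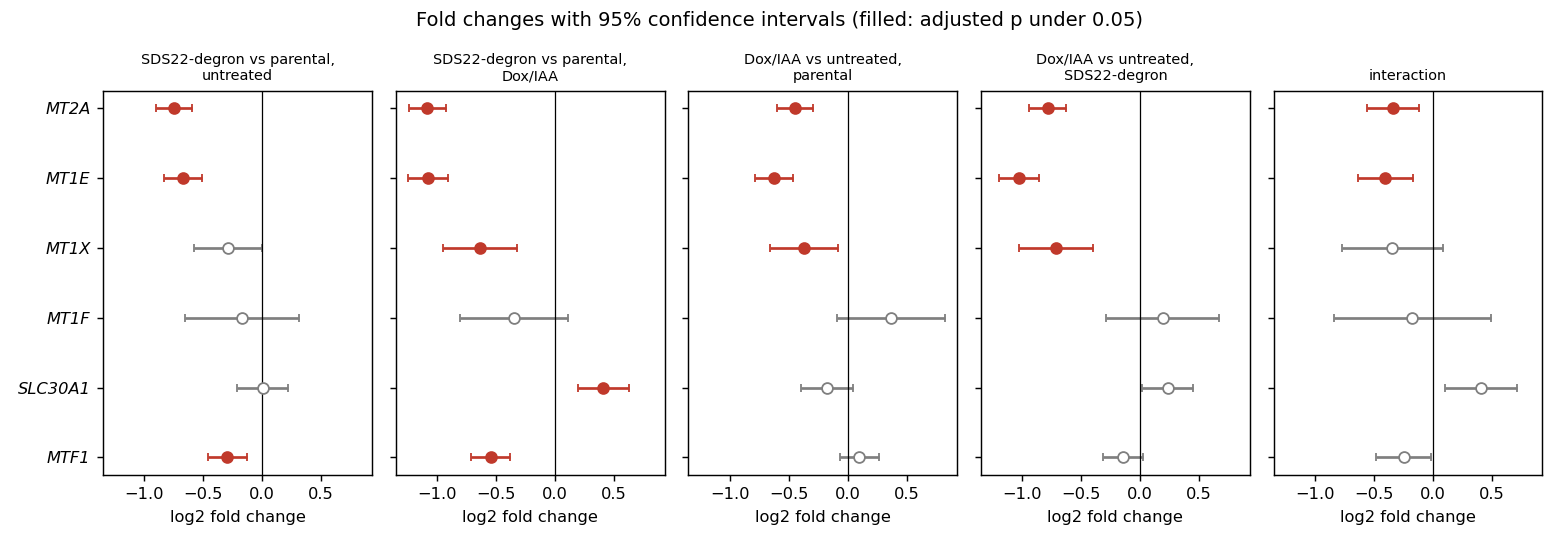
Log2 fold changes (x axis) of the 6 tested members (y axis) in the 4 comparisons and in the interaction, with 95% confidence intervals. Filled points are genes called by edgeR's quasi-likelihood test at an adjusted p of less than 0.05. MT2A and MT1E are filled and negative in all 5 panels, and SLC30A1 is filled only for the treated lines, at 0.41.

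The lines already differed before treatment. In untreated cells, MT2A was 0.75 lower on the log2 scale in the SDS22-degron line (log2 fold change -0.75, SE 0.0731, adjusted p = 7.23e-07). MT1E was lower as well (-0.67, SE 0.0768, adjusted p = 4.29e-06), as was MTF1 (-0.30, SE 0.0789, adjusted p = 0.00850). That is 3 of 6 called, all lower, beside 28.2% of tested genes called, 15% lower and 13.2% higher, with a median of -0.29 beside 0.0034. MT1X had -0.29 (adjusted p = 0.121) and MT1F -0.17 (95% interval -0.66 to 0.31). MT1X passed without parental untreated replicate 3 (adjusted p = 0.0386). For SLC30A1 no difference was detected (0.0038, 95% interval -0.21 to 0.22). The libraries of MT2A, MT1E and MTF1 did not overlap, 3 of 6 beside 43.5% of tested genes. No member passed the study's cut-off, beside 4.14%.

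Between the treated lines, the study's main contrast, 5 of 6 tested members were called, 4 lower and 1 higher, beside 44.9% of tested genes called, 23.1% lower and 21.8% higher. MT2A (log2 fold change -1.08, SE 0.0749, adjusted p = 5.47e-09) and MT1E (-1.08, SE 0.0804, adjusted p = 1.20e-08) were at 0.472 and 0.474 of their parental levels and passed the study's cut-off, beside 6.63% of tested genes. MT1X (-0.63, SE 0.151, adjusted p = 0.00217) and MTF1 (-0.54, SE 0.0794, adjusted p = 2.20e-05) were lower too. SLC30A1 was higher (0.41, SE 0.103, adjusted p = 0.00321), so the exporter and the buffers, which share a regulator, differed in opposite directions between these lines. MT1F had -0.35 (95% interval -0.80 to 0.11). Groups did not overlap in the 5 called genes, beside 52.9% of tested genes, and the 5 calls held under all 25 alternatives. These comparisons share libraries: the treated SDS22-degron libraries enter both this contrast and the treatment effect in that line, so their values are not independent.

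The metallothionein genes lie together in 1 cluster on chromosome 16, and that chromosome as a whole was lower in the SDS22-degron line. Over the 722 tested genes of chromosome 16 outside the family, the median log2 fold change was -0.30 between untreated lines, beside 0.0034 for all tested genes. Of the 722, 27 were called higher and 330 lower, beside 13.2% and 15% of all tested genes. Between treated lines the median was -0.31, beside -0.0056, with 53 higher and 356 lower, beside 21.8% and 23.1%. The chromosome 16 median was -0.02 for Dox/IAA in parental and -0.03 in SDS22-degron cells. The 39 tested genes within 2 Mb of the cluster had medians of -0.32 between untreated and -0.35 between treated lines. Of these, 0 and 2 were called higher and 23 and 22 lower, beside the same shares of all tested genes. For Dox/IAA their medians were -0.02 in parental and -0.09 in SDS22-degron cells.

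MT2A and MT1E stood below the median of these neighbours in all 4 comparisons. MT2A was lower than the window median by a further -0.42 between untreated and -0.73 between treated lines, and MT1E by -0.35 and -0.72. Of the 39 neighbours, 1 lay below them in each case, HERPUD1 (-1.57), an endoplasmic reticulum stress gene, between untreated lines and RP11-332G1.1 (-1.18) between treated lines. Both were named after their values were seen. MT1X differed from the window median by 0.03 between untreated lines and by -0.28 between treated lines, and MT1F by 0.15 and 0.0057. For the treatment, MT2A lay -0.43 and MT1E -0.61 from the window median in parental cells, and -0.70 and -0.94 in SDS22-degron cells. The part of the chromosome-wide shift in the difference between lines was not tested. MTF1 and SLC30A1 lie on chromosome 1.

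**Figure D3:**
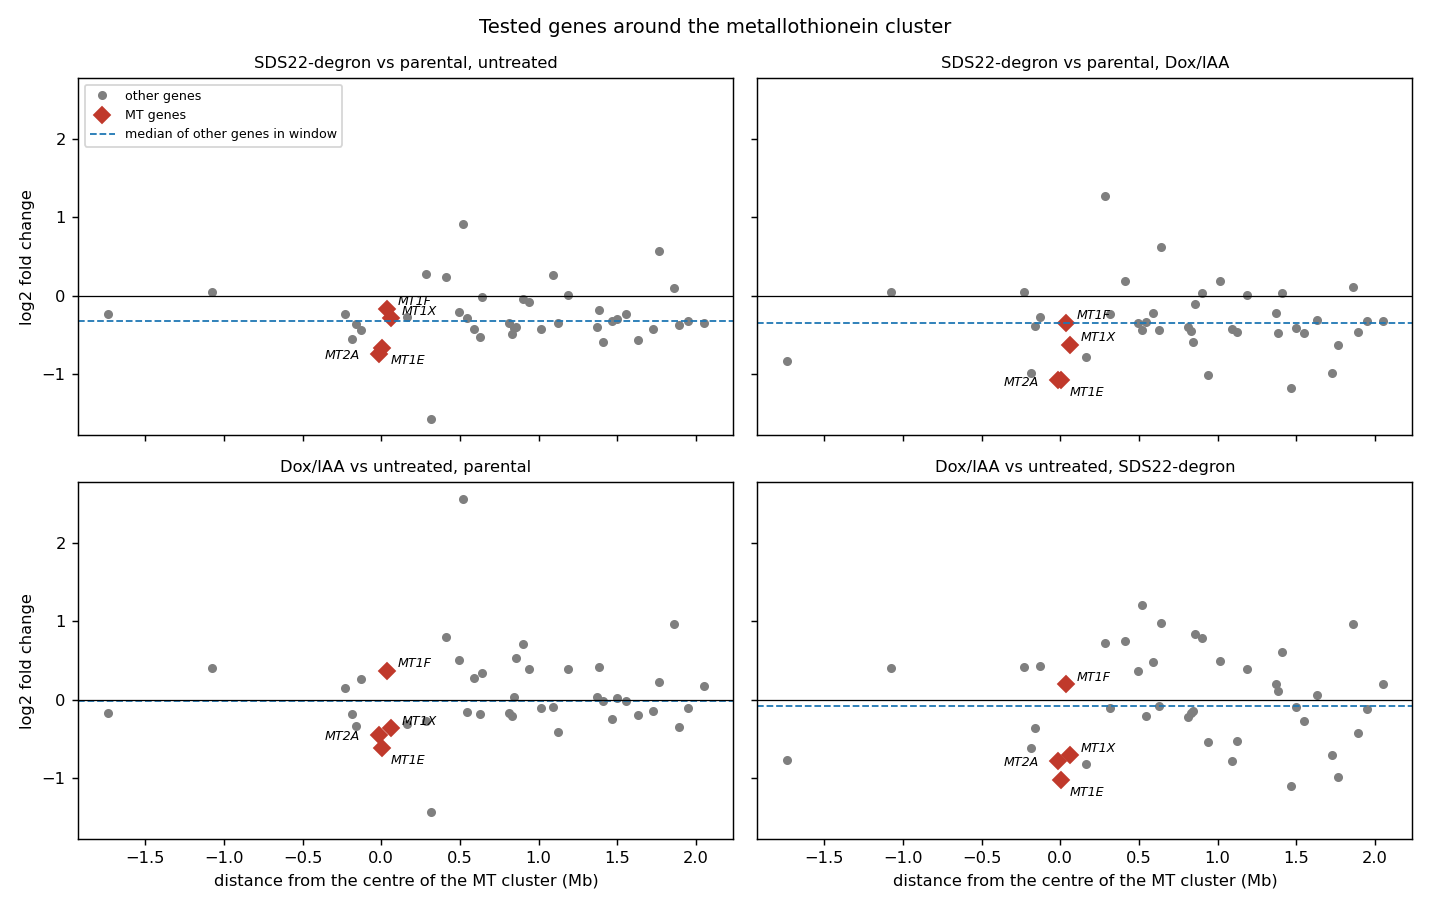
Log2 fold changes (y axis) of tested genes by distance from the centre of the metallothionein cluster in Mb (x axis), for the 4 comparisons. Grey points are the 39 neighbours, diamonds the 4 tested metallothioneins, and the dashed line the median of the neighbours, which is -0.32 and -0.35 in the upper panels (lines) and -0.02 and -0.09 in the lower panels (Dox/IAA).

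The members are so alike in sequence that the counted reads have to be read with their copies in mind. The coding sequences of MT2A, MT1E, MT1X and MT1F are each 186 bases long and share 88.71% to 92.47% of their bases. Processed pseudogenes are intronless copies elsewhere in the genome. MT2P1 and MT1XP1 come closer, sharing 97.27% of bases with MT2A and 96.24% with MT1X. MT1P3 shares 89.83% with MT1E, compared without gaps. MT1P3 has 177 bases, fewer than the coding sequence of MT1E, and most differences lie together at its 3' end. A comparison with gaps was not made, so this share can understate the likeness. Without gaps, MT1P3 differs from MT1E at 18 bases and from MT1M at 19. MT2P1 on chromosome 4 differs from MT2A at 5 of 183 coding bases, shown in capitals in this pair, with 68 bases as the longest identical run.
MT2A coding: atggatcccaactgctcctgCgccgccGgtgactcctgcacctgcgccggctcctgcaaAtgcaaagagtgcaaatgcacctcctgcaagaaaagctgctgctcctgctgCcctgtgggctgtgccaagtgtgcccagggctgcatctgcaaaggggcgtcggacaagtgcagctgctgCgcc
MT2P1: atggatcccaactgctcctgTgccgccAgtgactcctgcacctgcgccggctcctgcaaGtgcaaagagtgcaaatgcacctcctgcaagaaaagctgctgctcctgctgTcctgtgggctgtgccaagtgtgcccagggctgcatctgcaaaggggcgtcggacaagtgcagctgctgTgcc

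Reads were counted on these pseudogenes as well. MT2P1 had a mean of 93.1 CPM over the 12 libraries, with 42.7 to 50.5 reads per 100 MT2A reads. MT1P3 on chromosome 20, which overlaps MMP24-AS1 on the opposite strand, had 14.0 to 20.5 reads per 100 MT1E reads. MT1XP1 on chromosome 1 had 63.5 to 93.5 reads per 100 MT1X reads. The ratio to MT2A was alike in the 4 groups, with means of 45.6, 46.5, 45.5 and 47.0 in untreated and treated parental and untreated and treated SDS22-degron cells. The ratio to MT1E was 19.4, 18.99, 16.97 and 14.8 in the same order.

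Of the possible 75-base reads from the MT2A transcript, 0 of 327 match another gene exactly and 26.9% lie within 2 mismatches of MT2P1. For MT1X, 36.1% of 330 occur exactly in another gene, MT1G and MT1XP1 among them. For MT1E it was 0.794% of 630, and for MT1F 0 of 351. Within 2 mismatches of their pseudogenes lie 22.1% for MT1X and 11% for MT1E. By exact matches, MT1X reads are therefore the least certain of the 4.

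The pseudogene rows were lower in the same groups as the genes, with exceptions. MT2P1 had log2 fold changes of -0.41 and -0.73 with Dox/IAA in parental and SDS22-degron cells, -0.75 and -1.07 between untreated and treated lines, and -0.32 in the interaction. MT1P3 had -0.66, -1.22, -0.87, -1.43 and -0.56 in that order. All of these passed the test. MT1XP1 had -0.38 (adjusted p = 0.0563) in parental cells, -0.51 in SDS22-degron cells, -0.55 between treated lines and -0.13 (adjusted p = 0.732) in the interaction. Between untreated lines MT1XP1 was called lower (-0.42, adjusted p = 0.0376, lost under 11 of 24 alternatives), where MT1X was not (adjusted p = 0.121). MT1P3 had larger negative values than MT1E in each comparison, as its falling ratio to MT1E shows, and this difference was not tested. How many of these reads came from the parent genes was not tested. With each gene and its pseudogene summed, an alternative chosen after seeing the data, 5 members were called between treated lines, 4 between untreated lines, 3 and 3 for Dox/IAA, and 2 in the interaction. The added call was MT1X between untreated lines (log2 fold change -0.35, adjusted p = 0.0306).

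**Figure D4:**
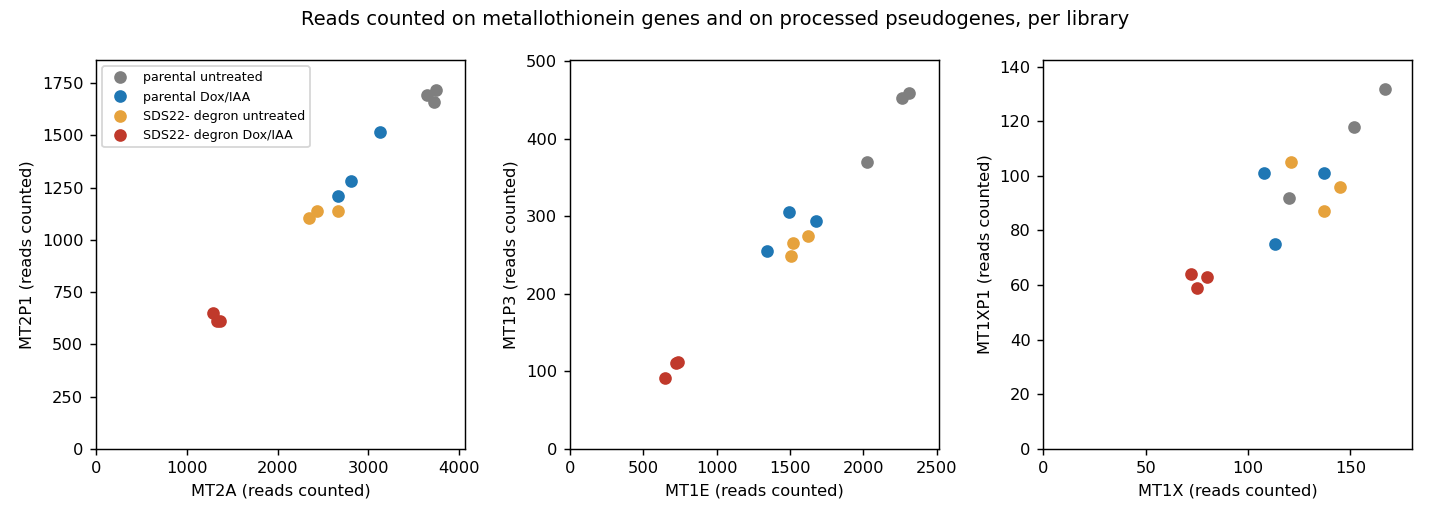
Reads counted per library on MT2A, MT1E and MT1X (x axes) and on the processed pseudogenes MT2P1, MT1P3 and MT1XP1 (y axes), all axes from 0. Each point is 1 of 12 libraries, coloured by group. MT2P1 keeps 42.7 to 50.5 reads per 100 MT2A reads from the highest to the lowest libraries.

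The rest of the family was close to silent. Of the 14 other metallothionein rows, 7 had at least 1 read and the 3 pseudogenes above were tested. MT1DP had 40 reads in total, MT1HL1 17, MT1P1 11 (it overlaps FANCC) and MT1B 2. MT1A, MT1H, MT1CP, MT1JP, MT1L, MT3, the metallothionein of brain, and MT4, that of squamous epithelium, were at 0.

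Other zinc transporters did not move one way. The counts called in this and the following lists stand beside shares over all tested genes of 31.6% for Dox/IAA in parental and 51.5% in SDS22-degron cells, 44.9% between treated and 28.2% between untreated lines, and 14.4% in the interaction, and all-gene medians near 0. The zinc exporters of the SLC30 family besides SLC30A1 had 7 of 9 genes tested. With Dox/IAA, 1 rose and 0 fell in parental cells and 2 rose and 1 fell in SDS22-degron cells, with medians of 0.05 and 0.08. The 1 that fell was SLC30A5 (-0.18, adjusted p = 0.0324), named after its value was seen, and 8 of 25 alternatives ended this call (adjusted p up to 0.143). SLC30A4, which loads zinc into vesicles, rose in both lines (0.61 and 0.54). SLC30A3, SLC30A6 and SLC30A7, those with the smallest interaction p, had interaction values of 0.24, -0.15 and -0.11, none past the threshold. Between lines, 3 were higher and 1 lower with treatment, and 2 were higher without it.

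The zinc importers of the SLC39 family had 11 of 14 genes tested. Dox/IAA raised 3 and lowered 2 in parental cells, and raised 4 and lowered 3 in SDS22-degron cells, with medians of -0.01 and -0.00057, which is 5 and 7 of 11 beside 31.6% and 51.5% of all tested genes. SLC39A11 (0.23 and 0.63), SLC39A13 (0.44 and 0.55) and SLC39A9 (0.23 and 0.19) rose in both lines, and SLC39A3 fell in both (-0.24 and -0.44). Alternatives ended the parental call of SLC39A3 in 12 of 25 cases (adjusted p up to 0.137) and of SLC39A11 in 5 (up to 0.0889), and the SDS22-degron call of SLC39A9 in 3 (up to 0.155). The SDS22-degron fall of SLC39A6 (-0.15, adjusted p = 0.0468), also named after its value was seen, ended in 16 of 25 (up to 0.194). The interaction called 3 of the 11. SLC39A8, an importer of zinc and manganese, fell in SDS22-degron cells (-0.77) and had -0.12 (adjusted p = 0.391) in parental cells, and this difference passed (interaction -0.66, adjusted p = 0.00373). The interaction was positive for SLC39A11 (0.40, adjusted p = 0.0102) and SLC39A4, the main zinc importer of the gut (0.40, adjusted p = 0.0172). Between lines, 3 importers were higher and 1 lower, both with and without treatment.

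Copper is the other metal that metallothioneins bind. Of 9 copper genes, all tested, Dox/IAA raised 2 and lowered 1 in parental cells and raised 4 and lowered 2 in SDS22-degron cells, with medians of 0.23 and 0.21, which is 3 and 6 of 9 beside 31.6% and 51.5%. The copper-exporting ATPase gene ATP7A (0.37 and 0.42) and CCS, the copper chaperone of superoxide dismutase (0.54 and 0.64), rose in both lines. ATOX1, the chaperone that hands copper to the ATPases, fell in both (-0.53 and -0.65). ATP7B, a further copper-exporting ATPase gene, rose in SDS22-degron cells (0.71) and had 0.17 (adjusted p = 0.302) in parental cells, and this difference passed (interaction 0.54, adjusted p = 0.0355), while COX17 (-0.49, adjusted p = 0.0665) and SLC31A1 (0.11) did not pass. Between lines, 6 were higher and 2 lower with treatment, and 3 and 1 without it.

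Iron is a further metal that Dox can bind, and 7 of 9 iron-regulated transcripts were tested. Dox/IAA raised 2 and lowered 3 in parental cells and raised 2 and lowered 2 in SDS22-degron cells, with medians of -0.18 and -0.02, which is 5 and 4 of 7 beside 31.6% and 51.5%. TFRC, the transferrin receptor through which cells take up iron, fell in both lines (-0.68 and -1.07) and further in SDS22-degron cells (interaction -0.40, adjusted p = 0.0221). FTH1, the heavy chain of the iron store ferritin, fell in both as well (-0.46 and -0.22; interaction 0.24, adjusted p = 0.166). ACO1, an iron regulatory protein (0.20 and 0.18), and NCOA4, the receptor that delivers ferritin for breakdown (0.19 and 0.31), rose in both. Alternatives ended the ACO1 calls in 8 and 10 of 25 cases (adjusted p up to 0.135 and 0.307), the parental NCOA4 call in 7 (up to 0.116) and the SDS22-degron FTH1 call in 5 (up to 0.228). SLC11A2, a divalent metal transporter, fell in parental cells alone by the test (-0.45 and 0.11), and this difference passed (interaction 0.55, adjusted p = 0.00389). Between lines, 4 were higher and 2 lower with treatment, and 2 and 2 without it.

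**Figure D5:**
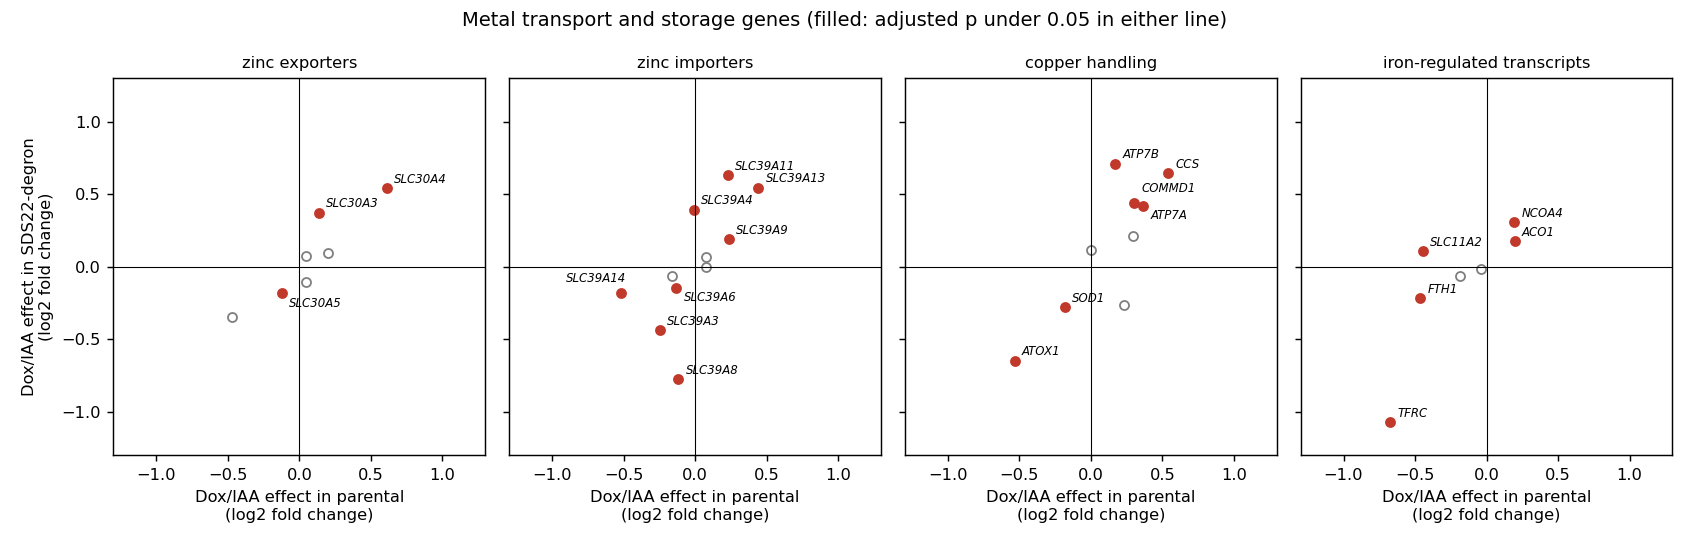
Log2 fold change with Dox/IAA in parental (x axis) and SDS22-degron cells (y axis) for tested zinc exporters, zinc importers, copper genes and iron-regulated transcripts. Filled, named points have an adjusted p under 0.05 in at least 1 line. Each panel holds genes in both directions, and TFRC is the lowest point at -0.68 and -1.07.

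Metallothioneins also respond to oxidants, heat and glucocorticoids, so genes of these responses were counted beside them. Of 11 metal and heat stress genes, 10 were tested. With Dox/IAA none rose and 2 fell in parental cells, and 1 rose and 2 fell in SDS22-degron cells, with medians of -0.16 and -0.13, which is 2 and 3 of 10 beside 31.6% and 51.5%. In SDS22-degron cells, HMOX1, the heme oxygenase induced by oxidants and heavy metals, rose by 0.28. GCLM, a subunit of the glutathione-synthesis enzyme (-0.81), and the chaperone gene HSPH1 (-0.61) fell there. In parental cells GCLM had -0.32 (adjusted p = 0.0591), HSPH1 -0.20 (adjusted p = 0.301) and HMOX1 -0.05 (adjusted p = 0.764). Their interactions did not pass (adjusted p = 0.0741 for GCLM, 0.170 for HMOX1 and 0.186 for HSPH1). The HMOX1 call ended under 8 of 25 alternatives (adjusted p up to 0.167). Between lines, 0 were higher and 3 lower with treatment, and 0 and 2 without it.

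Of 9 glucocorticoid-responsive genes, 8 were tested. Dox/IAA lowered 2 and raised none in parental cells, and raised 3 and lowered 1 in SDS22-degron cells, with medians of -0.22 and 0.35, which is 2 and 4 of 8 beside 31.6% and 51.5%. NR3C1, the glucocorticoid receptor gene, fell by 0.22 in parental and was higher by 0.37 in SDS22-degron cells, and this difference passed (interaction 0.60, adjusted p = 0.00167). The parental fall of NR3C1 was lost under 11 of 25 alternatives. TSC22D3 had an interaction of 1.67 (adjusted p = 0.0275), and without parental untreated replicate 1 it was 0.84 (adjusted p = 0.0506), with the parental effect going from -1.10 to -0.28. KLF9 had an interaction of 0.76 (adjusted p = 0.0634). Between lines, 2 were higher and 1 lower with treatment, and 0 and 2 without it.

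Across the 12 libraries, the log2 levels of MT2A, MT1E and MT1X ran together, with Pearson's r of 0.976 for MT2A and MT1E, 0.907 for MT2A and MT1X and 0.947 for MT1E and MT1X. After the group means were removed, r was 0.414, 0.447 and 0.654, so most of the likeness lay between groups. MT2A and MT1F had r = 0.126. MT2A and SLC30A1 had r = -0.604, and -0.480 within groups. MT2A and MTF1 had r = 0.814, and 0.170 within groups. These are descriptions, since the points share libraries and groups.

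Among 10847 genes with a mean of at least 10 CPM, the pattern most like the mean of the 4 tested metallothioneins over the 12 libraries was that of ALDOAP2 (r = 0.981), an aldolase pseudogene. Others with a like pattern were the phosphomannomutase gene PMM2 (0.974), EREG (0.968), which encodes epiregulin, and the SNARE gene VTI1A (0.967). The most opposite were FAM134B (-0.976), ARHGEF40 (-0.973), MGAT1 (-0.968), FAM210B (-0.967) and ZNF75D (-0.964). The 12 points fall into 4 groups and share their libraries.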

How the data were processed

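Poly-A selected, stranded libraries of total RNA were sequenced as single 75-base reads. The authors deposited raw read counts per gene, not normalized, with gene positions, length and GC percent. The submitters' processing notes name cutadapt 1.15, Bowtie2 2.3.3.1, STAR 2.5.2b, SAMtools 1.5, featureCounts 1.5.3 and GRCh38. The strand setting and the treatment of reads with several matches are not given in the sources used here.

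Groups were taken from the sample labels. Genes were filtered with filterByExpr (minimum count 10), which left 16657. The model, run in edgeR 4.0.16 (R 4.3.3) on TMM-normalized counts, had 4 group means over all 12 libraries. The quasi-likelihood F test was adjusted by Benjamini-Hochberg over all tested genes, and an adjusted p under 0.05 was called. The scripts were tested on simulated data. The median SE was 0.110 between groups and 0.156 in the interaction. CPM used TMM-scaled library sizes, and log2 CPM for correlations was computed with prior count 2.

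All 8 members are named. From other lists, the 3 genes with the smallest interaction p and those called in 1 direction in both lines are named, as are the 5 genes most and least like the metallothioneins in pattern, of which 1 is not reported here. Same-numbered libraries deviated together, with each of 3 correlations over 0.1, for Dox/IAA in parental cells (0.124 to 0.246) and between treated lines (0.101 to 0.138). The correlations were 0.0584 to 0.118 between untreated lines and -0.00926 to 0.0953 for Dox/IAA in SDS22-degron cells. Members and lists were chosen with earlier results of these data known. Promoters came from RefSeq (GRCh38.p14). Transcript sequences came from GENCODE models on GRCh37, without coordinates.

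The results were recomputed with DESeq2 1.42.0, the likelihood ratio test, other size factors, other filters, only the groups compared, GC and length corrections, a block for replicate number, single libraries left out, and genes summed with their pseudogenes.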

Additional observations from a re-analysis of the deposited data

Results flagged for a closer look

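The Dox/IAA effect differed between the 2 lines, by the interaction test at an adjusted p under 0.05, for 13 of the genes followed here, as log2 differences (SDS22-degron minus parental). Among metallothionein rows these were MT1E (-0.40), MT2A (-0.34), MT1P3 (-0.56, adjusted p = 0.0254) and MT2P1 (-0.32, adjusted p = 0.0464). The 2 pseudogene values share sequence with the genes and are not separate evidence. Among zinc importers they were SLC39A8 (-0.66), SLC39A11 (0.40) and SLC39A4 (0.40). The others were TFRC (-0.40), SLC11A2 (0.55), ATP7B (0.54), NR3C1 (0.60), TSC22D3 (1.67) and the epithelial marker CDH1 (0.64). TSC22D3 had 25.7 ± 19.6 CPM (SD, n = 3) in untreated parental cells, and its value went to 0.84 without replicate 1 of that group. Leaving out a single library also ended the call of SLC39A4 (SDS22-degron untreated replicate 1, adjusted p = 0.0568) and of TFRC (parental untreated replicate 3, SDS22-degron untreated replicate 2 or SDS22-degron Dox/IAA replicate 2, adjusted p = 0.0530 to 0.0658). Alternatives, mostly a library left out, ended it for ATP7B in 7 of 24 cases (adjusted p up to 0.101), CDH1 in 7 of 24 (up to 0.0923), TSC22D3 in 7 of 24 (up to 0.0677), MT1P3 in 5 of 23 (up to 0.0701) and MT2P1 in 12 of 23 (up to 0.115). Of all tested genes, 14.4% passed the same test.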

How the results depend on the processing

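The number of members called held between treated lines (5 under all 25 alternatives), between untreated lines (3 to 4) and for Dox/IAA in parental (2 to 3) and SDS22-degron cells (3 to 4). In the interaction it was 2, and 1 with a length correction, 0 to 2 with a library left out, and 3 without a filter or with a GC correction. The calls in the interaction were lost under 7 of 24 alternatives for MT2A (adjusted p 0.0134 to 0.109) and 2 of 24 for MT1E (0.00319 to 0.0592). SLC30A1 between untreated lines, near 0, changed sign to -0.00756 without a filter, and, over a range of -0.0962 to 0.0985 with a library left out, to -0.00561, -0.0344 and -0.0962 without parental untreated replicate 1, parental untreated replicate 3 or SDS22-degron untreated replicate 1. MT1F with Dox/IAA in SDS22-degron cells went to -0.0144 without replicate 3 of the treated group, in a range of -0.0144 to 0.325. The causes were not tested. Summed metallothionein levels with library size only were 483.2, 355.6, 302.1 and 171.8 CPM in untreated and treated parental and untreated and treated SDS22-degron cells, each within 1 SD.

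Replicate numbers are shared between groups, but same-numbered libraries did not deviate together throughout: 7 of 18 pairs had a correlation over 0.1 (-0.0569 to 0.246), and 11 of 12 libraries were closest to one of their own number, a hint from the data only. All 3 pairs were over 0.1 for Dox/IAA in parental cells and between treated lines, where the block changed no call of a member. With the replicate block, 3 members were called in the interaction, SLC30A1 added (0.41, adjusted p = 0.0169), SLC30A1 passed for Dox/IAA in SDS22-degron cells (0.23, adjusted p = 0.0188), and SLC30A1 between untreated lines was -0.00265.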
